A study of Mus musculus with 30 samples.

Results

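The comparison described here set primary cultures of mouse dorsal root ganglion (DRG) neurons that carried A-Fos against cultures of the same kind that had received no virus. It took 14 of the 30 libraries of the series, 7 with A-Fos and 7 untransduced, chosen by their labels. All cultures came from C57/Bl6 wild-type mice and from neuron-enriched DRG tissue, so both groups share that background. The A-Fos libraries, labelled DN for dominant negative, had been transduced with a PHP.S adeno-associated virus, a capsid described by the submitters as specific for sensory neurons. The untransduced libraries lacked both A-Fos and the virus, so A-Fos and the act of transduction cannot be told apart in these 14 libraries. The 7 GFP libraries from the same culture sets, which had received virus with GFP, are given beside single genes for that reason. The sources used here give neither the age and sex of the mice nor the promoter that drove A-Fos, and the culture time of these sets is not labelled. Levels of the A-Fos transgene were not analysed here, so no targeted transcript checks the labels.

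AP-1 is a family of transcription factors in which a Fos or an ATF protein pairs with a Jun protein through leucine zippers. Pairs of Fos and Jun bind the DNA sequence TGANTCA. A-Fos carries the Fos leucine zipper with an acidic stretch in place of the DNA-binding region, so that it pairs with Jun proteins and keeps them off DNA. In sensory neurons, Jun and Atf3 are known for their strong induction after axon injury, and dissociation of ganglia for culture also cuts axons.

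The libraries fell into a plain set (replicates 1 to 3 of each condition) and a dated set, whose titles carry a date (replicates 7 to 10). The series design says that replicates were cultures from separate mice and that each was divided between conditions, and same-numbered libraries were therefore treated as pairs, although no label ties a replicate number to a mouse. Library totals ranged from 24086491 to 37597752 gene counts in the A-Fos group and from 24462268 to 39138205 in the untransduced group. In a principal component analysis of the 14 libraries, the first component (28.9% of the variance) separated the culture sets and the second (21.2%) separated the conditions within each set. A-Fos replicate 10 stood apart from the other A-Fos libraries of the dated set, with -39.09 on the third component (8.58%) against -4.78 to 9.1. Its summed level of the fibroblast marker list was 13000 counts per 1000000 (CPM), against 8220 to 9540 CPM in the other dated A-Fos libraries. In replicate 10 the GFP library was high too, at 12500 CPM, and the untransduced library was not, at 9360 CPM. Counts of the gene lists are therefore given with their range over the left-out replicate pairs, or without replicate 10, where it moves them by over 1.5 times. The highest count of each such range came without replicate 10, except in the mitochondrial and ribosomal lists.

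The defining markers of sensory neurons were read in every library, with all 12 above 0 in all 14. Satellite glia, Schwann cells, fibroblasts, macrophages, endothelial cells and pericytes were read as well, and 2 of the 6 lymphocyte and neutrophil markers (Cd3e and Cd3g) had no count in any library. In such mixed cultures, a lower bulk level of a gene cannot tell fewer cells of a type from less RNA per cell.

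Of 17092 genes tested, 2525 (14.8%) differed between A-Fos and untransduced cultures at an adjusted p under 0.05 in edgeR's quasi-likelihood test with Benjamini-Hochberg adjustment, blocked by replicate. The direction was higher with A-Fos for 1515 genes (8.86%) and lower for 1010 (5.91%). At least a 2-fold difference was seen for 215 of the higher genes (1.26% of all tested) and for 114 of the lower genes (0.667%). The median log2 fold change over all genes tested was -0.02. Without replicate 10 the test called 3975 of 17116 genes, 2143 higher and 1832 lower. List counts without that replicate are to be read beside this wider gain in calls. The spread between the sets was wide, with 4271 genes called in the plain set alone (25.0% of 17088) and 665 in the dated set alone (3.82% of 17424).

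The sequences around the start sites of the leading genes are shown because AP-1 acts through a known DNA motif. They run from 250 bases before to 50 after the start in RefSeq's GRCm38.p6 annotation, and are printed 5′ to 3′ on the strand of the gene. Capitals mark TGANTCA, the AP-1 motif, which was searched together with TGACGTCA, the cyclic AMP response element, on both strands. The genes are the 2 largest rises with a window in the RefSeq promoter table used (Mrgprd, on the + strand at chr7:145314585-145314884, and Alkal2, on the + strand at chr12:30884074-30884373) and the 2 largest falls with a window there (Cckbr, on the + strand at chr7:105425481-105425780, and Nts, on the - strand at chr10:102490369-102490668).
Mrgprd: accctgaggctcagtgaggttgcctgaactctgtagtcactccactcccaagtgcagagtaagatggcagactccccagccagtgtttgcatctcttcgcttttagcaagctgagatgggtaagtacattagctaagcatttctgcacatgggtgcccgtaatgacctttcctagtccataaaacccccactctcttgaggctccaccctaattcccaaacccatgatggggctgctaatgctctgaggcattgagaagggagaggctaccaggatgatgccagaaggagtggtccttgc
Alkal2: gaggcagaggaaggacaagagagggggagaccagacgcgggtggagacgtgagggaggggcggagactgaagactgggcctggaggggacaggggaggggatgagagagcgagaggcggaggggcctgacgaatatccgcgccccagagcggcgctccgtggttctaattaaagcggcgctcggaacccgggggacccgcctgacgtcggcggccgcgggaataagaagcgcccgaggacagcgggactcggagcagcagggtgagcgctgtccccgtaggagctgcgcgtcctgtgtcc
Cckbr: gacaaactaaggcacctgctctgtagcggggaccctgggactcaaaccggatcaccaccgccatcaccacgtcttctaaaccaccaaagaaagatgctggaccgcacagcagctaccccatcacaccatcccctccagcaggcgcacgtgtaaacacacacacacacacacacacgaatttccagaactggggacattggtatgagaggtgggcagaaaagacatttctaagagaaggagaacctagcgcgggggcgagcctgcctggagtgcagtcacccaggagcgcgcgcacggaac
Nts: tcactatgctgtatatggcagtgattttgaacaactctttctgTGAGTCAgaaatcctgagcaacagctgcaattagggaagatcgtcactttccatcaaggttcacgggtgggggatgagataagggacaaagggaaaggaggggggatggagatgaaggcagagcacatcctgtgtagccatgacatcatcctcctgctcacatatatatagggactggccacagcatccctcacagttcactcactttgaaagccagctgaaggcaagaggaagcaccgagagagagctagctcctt
Only the window of Nts among these 4 held TGANTCA, as TGAGTCA with its first base at position -207 from the start. Among the 12 largest falls, 10 had a window and 1 of these held TGANTCA, and among the 12 largest rises, 9 had a window and none held it. The motif occurred in 2565 of 32851 such windows genome-wide (7.81%) or, counted by gene, in 2425 of 27025 (8.97%). TGACGTCA occurred in 588 windows (1.79%) or 549 genes (2.03%), and in none of the windows of those 19 genes. A match is a run of letters in a short window and does not mark a bound site, and distal sites were not searched.

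The genes that rose most with A-Fos included receptors and peptides known from pain- and itch-sensing neurons. Mrgprd, the itch and mechanical pain receptor that marks nonpeptidergic nociceptors (chromosome 7, 145314835 to 145324086), stood at 34.7, 44.2 and 69.0 CPM (lowest, median and highest) in the 7 A-Fos libraries and at 0.959, 3.5 and 7.23 CPM in the 7 untransduced ones. The groups did not overlap, and the lowest A-Fos library exceeded the highest untransduced one. The log2 fold change was 3.76 ± 0.379 (SE), a 13.5-fold rise (edgeR adjusted p = 0.000883, higher in 7 of 7 pairs). The GFP libraries, at 0.861, 2.94 and 4.76 CPM, lay within or just below the untransduced range.

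Tac1 encodes the precursor of substance P, a transmitter of peptidergic nociceptors. It read 40.5, 89.2 and 109 CPM with A-Fos against 9.4, 15.9 and 16.9 CPM without virus, with no overlap (log2 fold change 2.58 ± 0.229, edgeR adjusted p = 0.000368). The lowest A-Fos value of Tac1 came from replicate 10. The prostacyclin receptor gene Ptgir, which sensitises nociceptors, had the smallest standard error of the 12 largest rises, at 78.8, 96.6 and 108 CPM with A-Fos and 16.4, 20.0 and 26.1 CPM without (log2 fold change 2.14 ± 0.0966, edgeR adjusted p = 1.82e-07). GFP libraries held Ptgir at 17.9 to 24.5 CPM.

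Alkal2, a ligand of the receptor tyrosine kinases ALK and LTK, rose 7.88-fold, from a median of 3.52 CPM to a median of 27.1 CPM (log2 fold change 2.98 ± 0.32, edgeR adjusted p = 0.000943). It overlaps Acp1 on the opposite strand, and the sources used here do not say whether counting used strand. Chrna6, a nicotinic acetylcholine receptor subunit, rose 7.5-fold (1.59 to 11.7 CPM in the medians, edgeR adjusted p = 0.00288). The homeobox transcription factor gene Hoxd1, known in mouse for nociceptor circuit development, rose 5.53-fold from a median of 2.47 to 13.1 CPM (edgeR adjusted p = 0.000256). None of these genes had overlapping ranges between the groups. Over all genes tested, 2.26% had A-Fos ranges wholly above the untransduced ones and 1.21% wholly below.

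The other members of the 12 largest rises were Mrgprx3-ps, Chp2, Ctxn3, A3galt2, Gng8 and Creg2, with log2 fold changes from 1.94 to 3.69. Mrgprx3-ps is a pseudogene of the Mrgpr receptor family, whose near-identical copies can share reads, so its 12.9-fold rise is uncertain. Chp2, a calcineurin-like calcium-binding protein gene, had a log2 fold change of 2.38 ± 0.131, and Gng8, a G protein gamma subunit gene, of 2.1 ± 0.185. Across the 12 rises, GFP minus untransduced ran from -0.36 to 0.0 on the log2 scale in the fit with the GFP libraries (edgeR adjusted p = 1 for each, SE 0.0898 to 0.548).

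**Figure D1:**
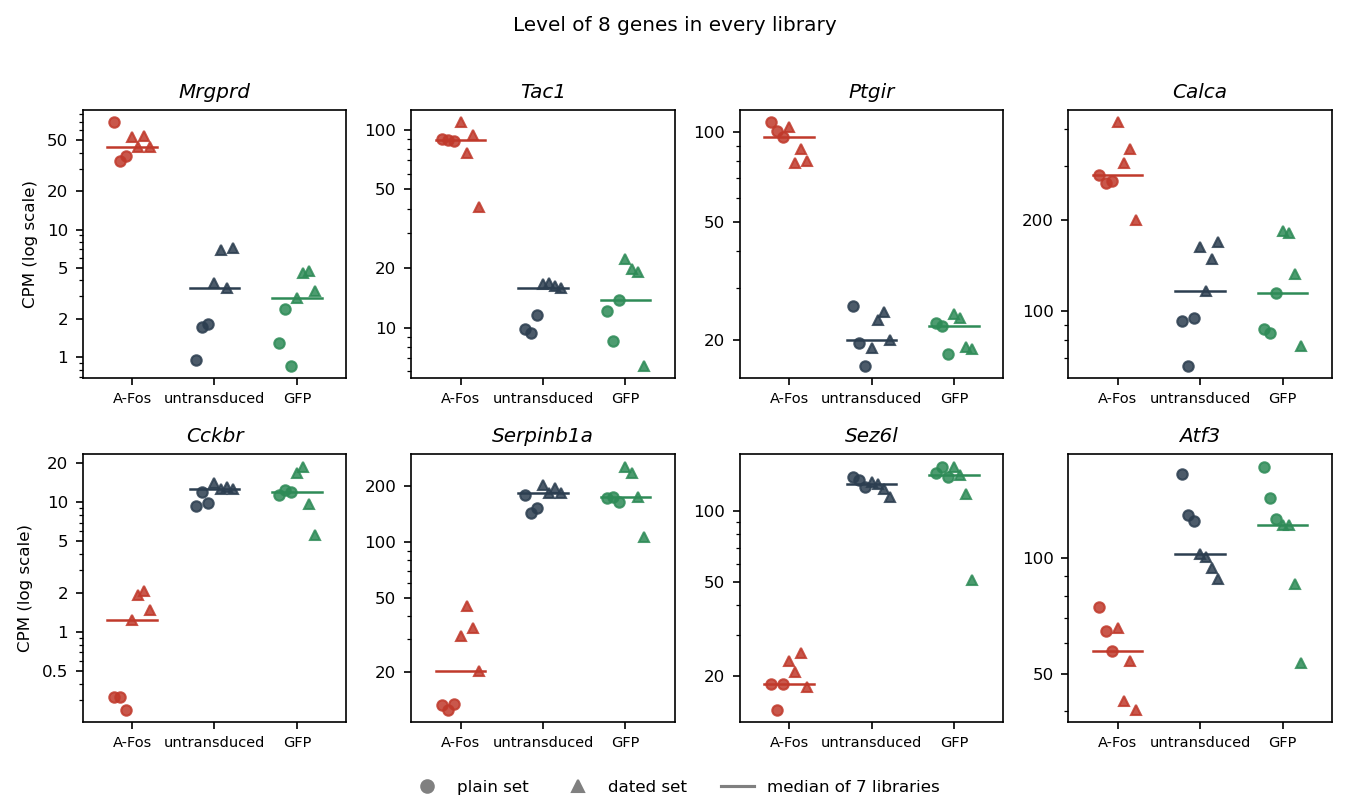
Level of 8 genes in CPM (log scale) in the A-Fos, untransduced and GFP libraries of the plain (circles) and dated (triangles) sets; lines are medians of 7 libraries. A-Fos libraries lie above all untransduced ones for Mrgprd, Tac1, Ptgir and Calca and below all of them for Cckbr, Serpinb1a, Sez6l and Atf3, while in GFP replicate 10 (the last triangle) Sez6l was at 51.3 CPM and Atf3 at 53.2 CPM.

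At the same minimum of 2 log2 CPM, the genes that fell most included several that sensory neurons are known to induce after nerve injury. Cckbr, the cholecystokinin B receptor gene (chromosome 7, 105425731 to 105470898), stood at 0.252, 1.25 and 2.07 CPM with A-Fos and at 9.38, 12.7 and 14.2 CPM without virus. The groups did not overlap, and the 3 plain A-Fos libraries were the lowest. The log2 fold change was -3.54 ± 0.319, an 11.7-fold fall (edgeR adjusted p = 0.000126). Nts, the precursor gene of the peptide neurotensin (chromosome 10, 102481756 to 102490486), fell 7.35-fold, from 13.6, 27.3 and 32.9 CPM to 0.941, 2.58 and 7.68 CPM (edgeR adjusted p = 0.00104).

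Serpinb1a, an inhibitor of neutrophil proteases, fell 7.97-fold from a median of 184 CPM to one of 20.2 CPM (log2 fold change -2.99 ± 0.239, edgeR adjusted p = 0.000261). Its highest A-Fos library, at 45.4 CPM, was far below the lowest untransduced one, at 144 CPM. Sez6l, a neuronal membrane protein gene, fell 6.58-fold with the smallest standard error of the 12 largest falls, from 115, 131 and 140 CPM to 14.4, 18.6 and 25.1 CPM (log2 fold change -2.72 ± 0.0936, edgeR adjusted p = 2.34e-08). Ecel1, a membrane protease known for its induction in injured neurons, fell 4.49-fold from a median of 56.7 to one of 10.4 CPM (edgeR adjusted p = 0.00168). Fam19a4, a secreted protein that marks C-fibre touch neurons, fell 5.38-fold (edgeR adjusted p = 3.18e-07), and Draxin, a secreted axon guidance protein, fell 4.43-fold (edgeR adjusted p = 2.34e-08).

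The remaining large falls were Trappc3l, Tgfbi, Rasd2, Tecta and Cabp7, with log2 fold changes from -2.28 to -1.79. Tgfbi, an extracellular matrix protein gene, was the one of the 12 whose ranges overlapped over both sets together. It stood at 1.11, 4.76 and 13.2 CPM with A-Fos and 9.41, 28.1 and 33.8 CPM without. Within each set its ranges were apart. They were 1.11 to 2.75 against 9.41 to 13.3 CPM in the plain set, and 4.76 to 13.2 against 28.1 to 33.8 CPM in the dated set. Trappc3l, Draxin and Cabp7 each overlap another gene on the opposite strand (Calhm5, Mad2l2 and Zmat5). GFP minus untransduced ran from -0.2 to 0.17 over the 12 falls (edgeR adjusted p = 1 for each, SE 0.145 to 0.279). GFP replicate 10 read below every untransduced library, but above every A-Fos one, for Cckbr, Serpinb1a, Sez6l, Trappc3l, Ecel1, Draxin, Rasd2, Tecta and Cabp7. It did not for Nts, Fam19a4 and Tgfbi over both sets together, where the lowest untransduced levels were those of the plain set. Against the dated untransduced libraries alone, GFP replicate 10 was below all of them for these genes too. For Tgfbi, GFP replicate 10 lay within the dated A-Fos range of 4.76 to 13.2 CPM. In that library Draxin was at 5.17 CPM (lowest untransduced 9.85 CPM) and Ecel1 at 30.5 CPM (lowest untransduced 51.9 CPM).

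The 24 genes were chosen for moving 1 way in all 7 pairs, so their direction in each set is fixed by that choice and only the sizes are described here. In the plain set alone the rises ran from 1.91 to 4.99 and in the dated set alone from 1.72 to 3.23, and the falls ran from -5.13 to -2.14 and from -2.97 to -1.53. A test of the difference between the sets passed for 2 of them. The rise of Chrna6 was smaller in the dated than in the plain set by 2.07 on the log2 scale (2.16 against 4.23), and the fall of Cckbr was smaller by 2.17 (-2.97 against -5.13). Over all genes, 30 of 17092 (0.176%) passed that test.

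**Figure D2:**
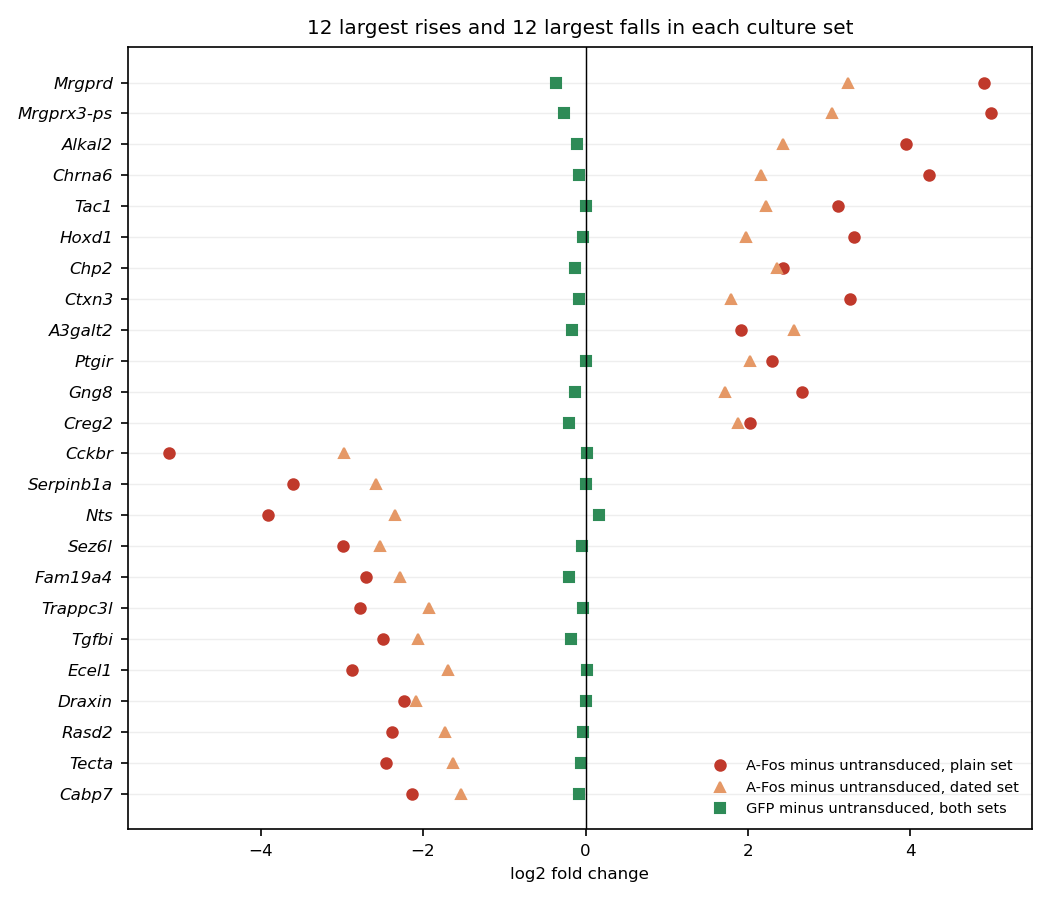
Log2 fold change of the 12 largest rises and 12 largest falls, as A-Fos minus untransduced in the plain set (circles) and in the dated set (triangles), and as GFP minus untransduced in both sets (squares). The genes were chosen by their A-Fos change, which fixes the direction of the A-Fos points. The smallest A-Fos point is 1.53 in size, and the squares lie between -0.36 and 0.17.

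The wider agreement of the sets was looked up gene by gene. Of 4249 genes called in the plain set and tested in the dated set, 3480 (81.9%) had the same direction there and 499 (11.7%) were called in it. Of 658 genes called in the dated set and tested in the plain set, 610 (92.7%) had the same direction and 499 (75.8%) were called. Without replicate 10 the dated set gave 1271 calls (7.25% of 17526), and these shares were 89.6% and 22.4% of the plain calls, and 94.4% and 75.7% of the dated calls. In the full dated set, 8 genes were called in opposite directions.

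Genes of the AP-1 family itself mostly changed by small amounts (median log2 fold change -0.12). Of 21 family genes, 18 were tested, and none was called higher and 5 lower (27.8%, against 5.91% of all genes). With a replicate pair left out, 2 to 6 were lower. Atf3, a family member that injured neurons induce strongly, fell 2.02-fold, from 88.5, 103 and 166 CPM to 40.2, 57.2 and 74.5 CPM, with no overlap between the groups (log2 fold change -1.02 ± 0.0693, edgeR adjusted p = 7.59e-07). GFP replicate 10 held Atf3 at 53.2 CPM, within the A-Fos range. Fosl1, encoding the Fos-related protein FRA-1, fell 1.35-fold without overlap, from a median of 30.6 to one of 24.9 CPM (edgeR adjusted p = 0.00129). Fosl1 overlaps Ccdc85b on the opposite strand.

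Smaller falls with overlapping ranges were those of Maff, which encodes a small Maf-type zipper protein, and Jdp2, a Jun partner. Their log2 fold changes were -0.2 and -0.18, and each lost its call when one of several single pairs was left out. Within each set the ranges of Jdp2 were apart. Fos had 29.0, 37.7 and 42.4 CPM with A-Fos and 32.3, 35.7 and 48.4 CPM without (log2 fold change -0.08 ± 0.0715, edgeR adjusted p = 0.471). Jun, the partner that A-Fos binds, had a log2 fold change of 0.08 ± 0.059 (edgeR adjusted p = 0.379). These gene counts do not show which part of Fos the reads cover, so they are no measure of the transgene.

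Jund, another Jun gene, had opposite signs in the sets, at -0.22 in the plain set (edgeR adjusted p = 0.00859) and 0.31 in the dated set (edgeR adjusted p = 0.0204). That difference of 0.53 passed the test between the sets, and both sets together gave 0.08 (edgeR adjusted p = 0.608).

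**Figure D3:**
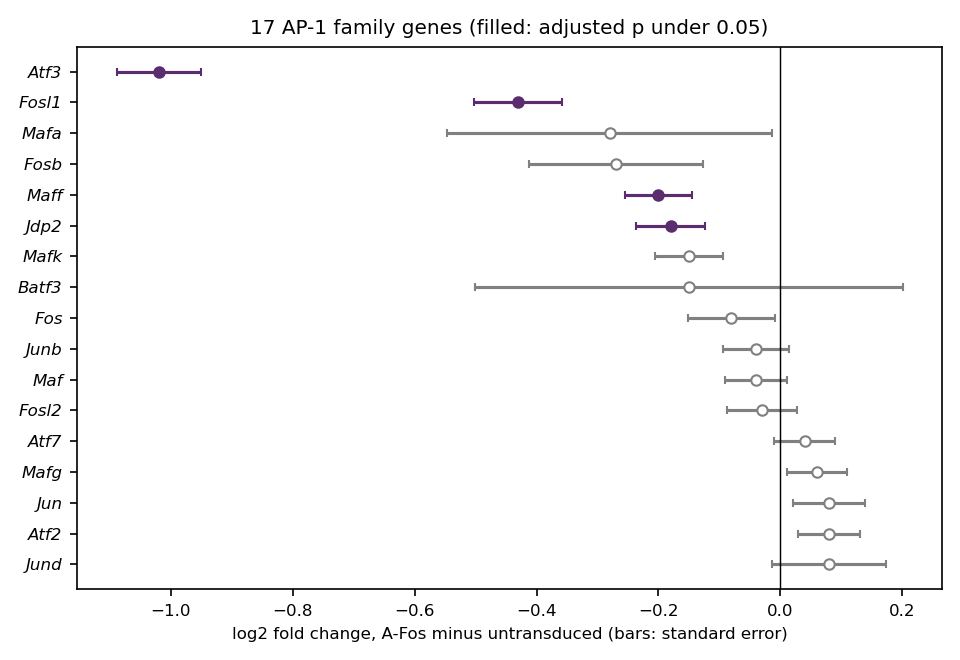
Log2 fold change (A-Fos minus untransduced, 7 and 7 libraries) of 17 AP-1 family genes, with standard errors; filled points passed an adjusted p of 0.05. Atf3 at -1.02 is the furthest from 0 and all 4 filled points lie below 0.

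Of 22 tested genes that textbooks list as AP-1 targets, 6 were called lower (27.3%, against 5.91% of all genes) and 1 higher (4.55%, against 8.86%), with a median log2 fold change of -0.25. Plaur, the urokinase receptor gene, fell 1.84-fold from 27.3, 30.3 and 33.3 CPM to 10.5, 17.1 and 22.2 CPM (edgeR adjusted p = 1.78e-05). Timp1, a metalloproteinase inhibitor, fell 1.36-fold (edgeR adjusted p = 0.00015) and Vegfa, a vascular growth factor, rose 1.26-fold (edgeR adjusted p = 0.000508), both with overlapping ranges. Within each set the ranges of Vegfa were apart. Sprr1a, a small proline-rich protein that injured neurons induce, had 28 reads in the 7 A-Fos libraries and 210 in the untransduced ones, with no overlap between groups. Leaving out a pair gave 4 to 14 of the textbook targets lower, the 14 without replicate 10, and the dated set alone gave 2. Several other textbook targets did not pass, among them the metalloproteinase gene Mmp14 (log2 fold change -0.14, edgeR adjusted p = 0.274) and the cyclin gene Ccnd1 (-0.09, edgeR adjusted p = 0.417).

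Genes known to be induced in DRG neurons by nerve injury fell in larger number. Of 50 tested, 29 were called lower (58.0%, against 5.91% of all genes) and 4 higher (8.0%, against 8.86%), with a median log2 fold change of -0.33. Leaving out any 1 replicate pair gave 27 to 29 of the list lower and 3 to 8 higher, the 8 without replicate 10. The dated set alone gave 20 lower and 2 higher. Sox11, a transcription factor of regenerating neurons, fell 2.07-fold from 89.2, 107 and 115 CPM to 40.0, 50.0 and 64.1 CPM (edgeR adjusted p = 4.84e-07). In GFP replicate 10 Sox11 was at 56.1 CPM, within the A-Fos range. Hspb1, a small heat shock protein, fell 2.03-fold from a median of 28.0 to one of 13.6 CPM (edgeR adjusted p = 4.84e-07), and neither gene's ranges overlapped. Flrt3, an adhesion protein, fell 1.98-fold (edgeR adjusted p = 5.77e-07); it overlaps Macrod2 on the opposite strand.

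The 4 list members called higher were Nptx1, Stat3, Klf7 and Atf5. Gal, the precursor gene of galanin, which injury also induces, was chosen after its values were seen because its level differed little, at 4.05, 7.53 and 12.1 CPM with A-Fos and 3.06, 7.5 and 10.4 CPM without (log2 fold change 0.21 ± 0.227, edgeR adjusted p = 0.591).

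**Figure D4:**
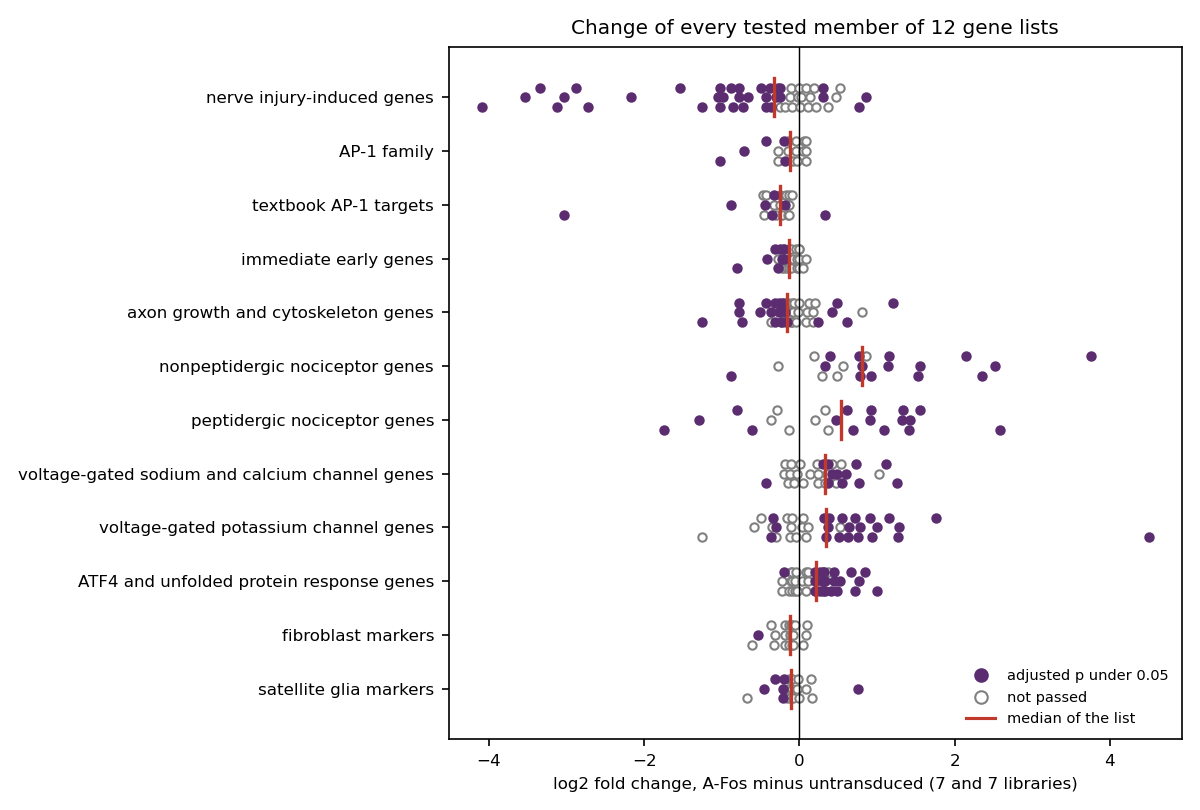
Log2 fold change (A-Fos minus untransduced, 7 and 7 libraries) of every tested member of 12 gene lists; filled points passed an adjusted p of 0.05 and red bars are list medians. Filled points of the nerve injury list lie mostly to the left of 0 (29 lower and 4 higher, or 29 and 8 without replicate 10), and those of the nonpeptidergic nociceptor list mostly to the right (14 higher and 1 lower).

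Among 45 genes of axon growth and of the cytoskeleton, 15 were called lower (33.3%, against 5.91% of all genes) and 5 higher (11.1%, against 8.86%), with a median of -0.16. Leaving out a pair gave 12 to 18 lower and 2 to 9 higher, and the sets alone gave 19 lower and 12 higher (plain) and 7 lower and 1 higher (dated). Gap43, a growth cone protein, fell 1.72-fold from 52.9, 70.4 and 84.9 CPM to 25.7, 45.0 and 46.9 CPM (edgeR adjusted p = 0.000646), and its lowest A-Fos value was that of replicate 10. Stmn4, a microtubule regulator, fell 2.39-fold (edgeR adjusted p = 0.000766). Tubb3, the neuronal beta-tubulin, fell 1.71-fold from a median of 914 to one of 567 CPM (edgeR adjusted p = 1.09e-05), and Stmn2, another microtubule regulator, fell 1.67-fold (edgeR adjusted p = 1.33e-05). GFP replicate 10 held Stmn2 at 296 CPM, within the A-Fos range of 210 to 330 CPM.

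Of 58 axon guidance genes, 7 were lower (12.1%, against 5.91% of all genes) and 4 higher (6.9%, against 8.86%). Leaving out a pair gave 5 to 16 lower and 2 to 8 higher, the highest of each without replicate 10. Besides Draxin, Plxna4, a semaphorin receptor, fell 1.56-fold (edgeR adjusted p = 1.75e-05) and Sema6a, a semaphorin, fell 1.66-fold (edgeR adjusted p = 1.81e-05). The netrin receptor gene Unc5c rose 1.58-fold (edgeR adjusted p = 0.00122). None of the 3 had overlapping ranges.

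Nonpeptidergic nociceptors, which bind the lectin IB4 and use the receptor RET, had the list with the highest median. Of 21 genes tested, 14 were called higher (66.7%, against 8.86% of all genes) and 1 lower (4.76%, against 5.91%), with a median log2 fold change of 0.81. Leaving out a replicate pair gave 11 to 17 higher, and the dated set alone gave 7. Beyond Mrgprd and Ptgir, Cd55, a complement regulator on these neurons, rose 1.89-fold from 64.4, 84.3 and 95.0 CPM to 136, 144 and 171 CPM (edgeR adjusted p = 3.61e-05). P2rx3, the ATP-gated channel of these neurons, rose from a median of 165 to one of 306 CPM (log2 fold change 0.81 ± 0.143, edgeR adjusted p = 0.00626).

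Ret went the other way and was the 1 member called lower, falling 1.84-fold from 238, 287 and 363 CPM to 119, 173 and 212 CPM (edgeR adjusted p = 5.82e-07). The groups did not overlap. The GFP libraries held Ret at 224, 287 and 370 CPM.

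Among 22 genes of peptidergic nociceptors, which release substance P and calcitonin gene-related peptide, 12 were called higher and 4 lower (median 0.54). These were 54.5% and 18.2% of the list, against 8.86% and 5.91% of all genes. Calca, the precursor gene of calcitonin gene-related peptide, rose 2.53-fold from 66.0, 116 and 169 CPM to 200, 281 and 419 CPM (edgeR adjusted p = 0.00274). Its ranges did not overlap. Trpm8, the cold- and menthol-gated channel, rose 2.67-fold with overlapping ranges (edgeR adjusted p = 1.84e-05), and Ptger4, a prostaglandin E2 receptor, rose 2.66-fold without overlap (edgeR adjusted p = 2.15e-05).

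The members called lower were Gfra3, Cckar, Adra2a and Prokr2. Prokr2, a prokineticin receptor, fell 3.36-fold from 2.82, 4.33 and 5.17 CPM to 0.728, 1.27 and 1.88 CPM (edgeR adjusted p = 9.99e-05). Among 13 itch neuron genes, 4 were higher and 2 lower (30.8% and 15.4%, against 8.86% and 5.91% of all genes). Leaving out a pair gave between 1 and 7 higher. The prostaglandin D2 receptor gene Ptgdr rose 2.19-fold (edgeR adjusted p = 0.000253), and Nppb, the precursor of an itch peptide, fell 1.25-fold with overlapping ranges (edgeR adjusted p = 0.00756). Within each set the ranges of Nppb were apart.

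Of 29 genes of touch and position-sense neurons, 4 were called higher (13.8%, against 8.86% of all genes) and 7 lower (24.1%, against 5.91%), with a median of -0.05. Leaving out a pair gave 4 to 8 higher and 3 to 6 lower. Cntnap2, an axonal adhesion protein, rose 1.4-fold (edgeR adjusted p = 0.000313) and Nefl, the light neurofilament chain, fell 1.42-fold with overlapping ranges (edgeR adjusted p = 0.00123). Within each set the ranges of Nefl were apart. Of 34 genes shared by sensory neurons or neurons at large, 9 were higher and 9 lower (26.5% each way, against 8.86% and 5.91% of all genes, median 0.07). Slc17a6, the vesicular glutamate transporter of these neurons, fell 2.03-fold from 93.2, 130 and 142 CPM to 48.0, 61.1 and 71.6 CPM (edgeR adjusted p = 1.21e-06). Uchl1, a neuronal marker, had medians of 555 and 580 CPM (log2 fold change 0.0 ± 0.0707, edgeR adjusted p = 0.979). Higher counts of this list ranged from 4 to 12 when a replicate pair was left out, and no member was called higher in the dated set alone.

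For voltage-gated potassium channels and their subunits, 19 of 37 were higher and 3 lower (51.4% and 8.11%, median 0.34). Over all genes tested these shares were 8.86% and 5.91%. Kcnip3, a potassium channel subunit that also binds DNA, rose 2.22-fold from 29.4, 35.6 and 39.5 CPM to 56.4, 83.0 and 93.5 CPM (edgeR adjusted p = 2e-06). Kcnip2, its relative, rose 2.42-fold (edgeR adjusted p = 7e-05) and Kcnd1, the pore subunit both assist, rose 2.01-fold from a median of 39.1 to one of 80.1 CPM (edgeR adjusted p = 0.000104), all without overlap. Kcna5 had 228 reads in the A-Fos libraries and 9 in the untransduced ones, 4 of which had none.

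Sodium and calcium channels gave 11 higher and 1 lower of 31 (35.5% and 3.23%, against 8.86% and 5.91% of all genes). The median was 0.33, with 6 to 15 higher and 0 to 2 lower when a pair was left out. Scn2b, a sodium channel beta subunit, rose 1.66-fold (edgeR adjusted p = 0.00251). Its ranges overlapped over both sets together and were apart within each set. Of the nociceptor sodium channels, Scn11a (Nav1.9) rose with a log2 fold change of 0.77 ± 0.185 (edgeR adjusted p = 0.0305) and Scn9a (Nav1.7) with 0.55 ± 0.132 (edgeR adjusted p = 0.0242). Scn10a (Nav1.8) did not pass, at 0.42 ± 0.208 (edgeR adjusted p = 0.238), with 0.99 in the plain set. In the dated set its log2 fold change was 0.0.

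The TRP, acid-sensing, P2X and mechanosensitive channels gave 15 higher and 3 lower of 33 (45.5% and 9.09%, against 8.86% and 5.91% of all genes). The median was 0.26, with 9 to 16 higher and 3 to 6 lower when a pair was left out. Asic1 rose 3.03-fold from 3.88, 4.44 and 6.38 CPM to 11.6, 12.8 and 19.5 CPM (edgeR adjusted p = 2.42e-06). Its relative Asic3 fell 2.2-fold from 13.5, 16.3 and 31.3 CPM to 4.89, 9.69 and 13.0 CPM (edgeR adjusted p = 2.13e-05). Both encode acid-sensing channels of nociceptors, and neither gene's ranges overlapped. In the dated set alone, 5 potassium channel genes, 1 sodium or calcium channel gene and 3 of these were higher, and without its replicate 10 these counts were 15, 9 and 9.

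Peptide precursors split, with 3 of 19 higher (Tac1, Calca and Calcb) and 5 lower. The shares were 15.8% and 26.3%, against 8.86% and 5.91% of all genes. Leaving out a pair gave 2 to 6 higher and 4 to 6 lower, with 6 each way without replicate 10. Besides Nts and Nppb, Cartpt, the precursor of the CART peptide, fell 3.09-fold from a median of 16.7 to one of 3.99 CPM (edgeR adjusted p = 1.78e-05). Among 44 genes of synaptic vesicles and dense core granules, 14 were higher (31.8%, against 8.86% of all genes) and 6 lower (13.6%, against 5.91%). Their median was 0.14, with 10 to 23 higher and 4 to 6 lower when a pair was left out, the 23 without replicate 10. Pcsk1, a convertase that cuts peptide precursors, fell 2.02-fold from a median of 26.5 to one of 12.5 CPM (edgeR adjusted p = 3.4e-06), and the vesicle protein gene Sv2a rose 2.18-fold from a median of 6.04 to one of 14.6 CPM (edgeR adjusted p = 3.95e-05).

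Genes of the ATF4 pathway and the unfolded protein response, which cells use under amino acid shortage and endoplasmic reticulum stress, were called higher in 24 of 43 cases and lower in 1 (median 0.22). These were 55.8% and 2.33% of the list, against 8.86% and 5.91% of all genes. When a replicate pair was left out, 21 to 24 were higher and 0 to 6 lower, the 6 without replicate 10. In the plain set alone 24 were higher and 8 lower, and in the dated set alone 10 and none. Slc7a5, a transporter of large neutral amino acids, rose 2-fold from 101, 115 and 119 CPM to 190, 227 and 279 CPM (edgeR adjusted p = 7.04e-07). Atf5, a transcription factor of this response, rose 1.7-fold from a median of 196 to one of 308 CPM (edgeR adjusted p = 2.42e-05), and Pck2, the mitochondrial phosphoenolpyruvate carboxykinase, rose 1.8-fold (edgeR adjusted p = 2.44e-05). Chac1, which degrades glutathione, rose 1.64-fold with overlapping ranges (edgeR adjusted p = 2.09e-05). Hspa5, the chief chaperone of the endoplasmic reticulum, was chosen after its values were seen and had medians of 676 and 675 CPM (log2 fold change 0.03 ± 0.0577, edgeR adjusted p = 0.774).

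Signalling genes that neurons and other cells induce at once on stimulation were not called higher in any of 29 cases and were lower in 8 (median -0.13). The 8 were 27.6% of the list, against 5.91% of all genes. Leaving out a pair gave 2 to 13 lower, the 13 without replicate 10. Dusp1, a phosphatase that ends MAP kinase signals, fell 1.74-fold from 97.6, 113 and 124 CPM to 50.4, 65.0 and 76.4 CPM (edgeR adjusted p = 4.84e-07). In the DLK and JNK pathway, which carries the axon injury signal to Jun, 5 of 25 were lower and 2 higher (20.0% and 8.0%, median 0.0). Over all genes tested these shares were 5.91% and 8.86%. With a pair left out, 2 to 7 were lower and 1 to 5 higher. Mapk8ip1, a JNK scaffold, fell 1.35-fold (edgeR adjusted p = 0.000446) and Map3k1, a kinase upstream of JNK, rose 1.3-fold (edgeR adjusted p = 0.000999).

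In cell death pathways the changes went both ways. Of 17 Bcl2 family genes, 4 were higher and 3 lower (23.5% and 17.6%, against 8.86% and 5.91% of all genes). Hrk, a death-promoting family member of neurons, fell 2.49-fold from 2.87, 6.26 and 8.5 CPM to 1.83, 2.31 and 2.69 CPM (edgeR adjusted p = 0.000247), and Bid, another death promoter, rose 1.59-fold with overlapping ranges (edgeR adjusted p = 9.17e-05). Of 31 p53 targets, 4 were higher (12.9%, against 8.86% of all genes) and 7 lower (22.6%, against 5.91%). Leaving out a pair gave 1 to 4 higher and 2 to 13 lower, the 13 without replicate 10. Gadd45a, which is also on the injury list, fell 1.58-fold (edgeR adjusted p = 1.78e-05).

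Of 42 interferon response genes, 6 were higher (14.3%, against 8.86% of all genes) and 3 lower (7.14%, against 5.91%; median -0.02), with 3 to 7 higher and 1 to 3 lower when a pair was left out. Stat2, a transcription factor of that response, rose 1.4-fold with overlapping ranges (edgeR adjusted p = 0.000985). Of 15 nucleic acid sensing genes, 2 were higher (13.3%, against 8.86% of all genes) and none lower, with 0 to 1 lower when a pair was left out. Tmem173, which encodes the DNA-sensing adaptor STING, rose 2.13-fold from 7.43, 8.51 and 11.2 CPM to 14.4, 20.9 and 26.8 CPM without overlap (edgeR adjusted p = 0.000917). Of 29 NF-kB and cytokine genes, 9 were lower (31.0%, against 5.91% of all genes) and none higher (median -0.26). Leaving out a pair gave 3 to 17 lower, the 17 without replicate 10, and the dated set alone gave none. Csf1, a cytokine that injured neurons release, fell 1.23-fold with overlapping ranges (edgeR adjusted p = 0.0172).

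Genes of extracellular matrix remodelling gave 6 lower and none higher of 43, but 29 lower without replicate 10 and 32 in the plain set alone. Adam8, a membrane protease, fell 2.62-fold from 11.8, 13.6 and 19.8 CPM to 3.9, 5.19 and 7.45 CPM (edgeR adjusted p = 3.47e-05). Of 29 glutathione and NRF2 target genes, 7 were lower (24.1%, against 5.91% of all genes) and 1 higher (3.45%, against 8.86%). Leaving out a pair gave 5 to 11 lower and 0 to 2 higher, the highest of each without replicate 10. Srxn1, which repairs oxidised peroxiredoxins, fell 1.56-fold from 315, 353 and 426 CPM to 200, 228 and 246 CPM (edgeR adjusted p = 5.55e-06). Cholesterol synthesis genes were called higher in 2 of 27 cases (7.41%, against 8.86% of all genes) and lower in none. Without replicate 10, 6 were higher.

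Markers of the other cells of the culture were looked at because a change in the cell mixture would move many genes at once. Of 21 fibroblast markers, 1 was called lower (4.76%, against 5.91% of all genes) and none higher, while 7 were lower without replicate 10. Their summed level ran from 7600 to 13000 CPM with A-Fos and from 8810 to 11400 CPM without virus. It was lower with A-Fos in 6 of 7 pairs, and higher in replicate 10 (13000 against 9360 CPM). Satellite glia markers gave 5 lower (25.0%) and 1 higher (5.0%, against 8.86% of all genes) of 20. Schwann cell markers gave 3 lower (12.5%) and 1 higher (4.17%) of 24. Leaving out a pair gave 2 to 7 and 1 to 5 lower for these lists, and 1 to 2 and 1 to 4 higher. Glul, the glutamine synthetase of satellite glia, fell 1.36-fold from 139, 143 and 155 CPM to 91.3, 107 and 121 CPM (edgeR adjusted p = 8.69e-05). Ngfr, the p75 neurotrophin receptor, which sensory neurons carry as well as Schwann cells, rose 1.84-fold from a median of 184 to one of 335 CPM (edgeR adjusted p = 1.33e-05).

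Of 18 macrophage markers 1 was lower (5.56%), of 15 endothelial markers 3 (20.0%) and of 12 pericyte and smooth muscle markers 4 (33.3%). Of 34 proliferation genes 7 were lower (20.6%), against 5.91% of all genes tested. Higher calls came to 1 pericyte marker (8.33%, against 8.86% of all genes). Leaving out a pair gave 3 to 15 proliferation genes and 1 to 7 pericyte markers lower, the highest of each without replicate 10. In the dated set alone none of either was lower. Without replicate 10, 1 endothelial marker was higher. The part of the cell mixture in the results above was not tested. In the plain set the summed level of the neuronal list ran from 6630 to 8280 CPM with A-Fos, above its range of 5950 to 6600 CPM without virus. In the dated set it ran from 5980 to 7810 CPM with A-Fos and from 7000 to 8040 CPM without, and was lower with A-Fos in 3 of 4 pairs.

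**Figure D5:**
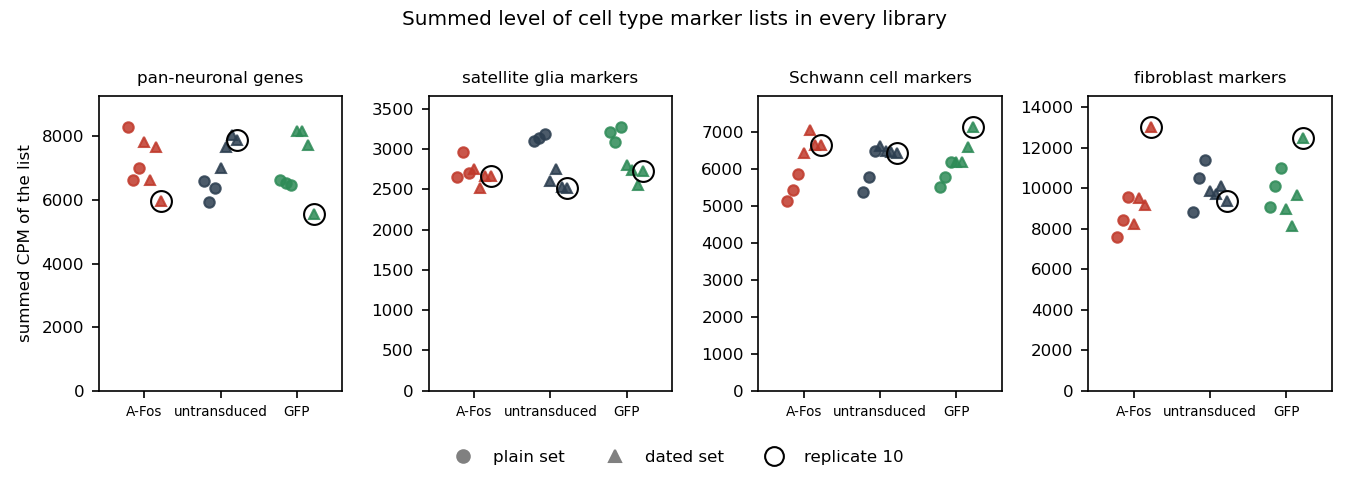
Summed level, in CPM, of 4 marker lists in every library of the plain (circles) and dated (triangles) sets, with replicate 10 ringed. The fibroblast sum is highest in A-Fos replicate 10 (13000 CPM) and GFP replicate 10 (12500 CPM), and the neuronal sum is lowest among the dated libraries in the same samples (5980 and 5550 CPM).

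Of 10 noncoding RNAs that stay in the nucleus, 6 were called higher (60.0%, against 8.86% of all genes), 4 did not pass and none was lower (median 0.38). Leaving out a pair gave 3 to 6 higher, the plain set alone 5, the dated set alone 2, and the fit of all 30 libraries, which adds the GFP libraries and a set labelled 7DIV, none. That 7DIV set holds an untransduced library rich in nuclear RNA, for which the set was left out of the comparison. The summed level of these noncoding RNAs ran from 39400 to 45900 CPM with A-Fos and from 29700 to 36700 CPM without virus in the dated set. In the plain set the ranges overlapped, at 32400 to 33400 and 30000 to 36700 CPM. Meg3 rose 1.43-fold and Miat 1.58-fold, both with overlapping ranges (edgeR adjusted p = 0.00516 and 0.0109). Of 12 mitochondrially encoded genes, 3 were lower (25.0%, against 5.91% of all genes) and none higher (median -0.23). Of 50 cytosolic ribosomal protein genes, 2 were lower (4.0%) and none higher (median -0.08). Leaving out a pair gave 1 to 4 and 1 to 5 lower for these lists. Their part in the other results was not tested.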

How the data were processed

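RNA was extracted with the RNeasy Micro kit and libraries were made with a TruSeq kit, per the labels' protocols. The authors deposited raw read counts per Ensembl gene, as whole numbers with no normalization. Tools were bcl2fastq 2.17, STAR and HTSeq and the build GRCm38/mm10, per the submitters' processing notes, with no settings. The sources used here state neither strandedness nor annotation release. Besides the genes marked in the text, Timp1, Cd55, Ptger4, Ptgdr, P2rx3, Atf5, Dusp1, Mapk8ip1, Gadd45a, Bid, Adam8, Glul, Nefl, Cntnap2, Stat3, Jun and Jund overlap an annotated gene on the opposite strand, so reads of such pairs may be mixed. GENCODE M21 gave a symbol for 48435 of 48795 identifiers, and positions are from it.

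Counts were fitted in R 4.3.3 with edgeR 4.0.16 (filterByExpr by condition, TMM factors, robust quasi-likelihood F test, two-sided, replicate number as a block). The fit had 6 residual degrees of freedom and a common biological coefficient of variation of 0.117. An adjusted p under 0.05 was called. SE was taken as the size of the log2 fold change over the root of F. Levels are counts per 1000000 of TMM-scaled totals (CPM) over 21 libraries, the GFP ones included, and are not per length, so they compare libraries and not genes. Ranges were read over both sets together, so those of a gene whose level differs between the sets can overlap while being apart within each. GFP values came from a fit of those 21 libraries, whose comparisons share the untransduced libraries. DESeq2 1.42.0, other scalings, filters and library choices were alternatives. A paired look at same-numbered libraries found deviations that correlated over 0.1 across genes in 1 of 7 pairs (median r 0.043), with 4 of 7 A-Fos libraries closest to their own number. The pairing rests on the series design, and no label ties a number to a mouse.

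The members, lists and tests were chosen with earlier results of these data known. Genes named were the 12 largest rises and 12 largest falls among called genes averaging 2 log2 CPM or more whose 7 pairs went 1 way (no Gm or Rik names), all AP-1 family genes tested, up to 4 genes with the smallest p per list, and 6 for the difference between sets. Members under the count filter were not tested. Some genes the rule names are not reported here. The 7DIV libraries were left out because 1 untransduced library there was rich in nuclear RNA. The repeat table was not used here. Promoter windows came from RefSeq.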

Additional observations from a re-analysis of the deposited data

Results flagged for a closer look

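In 344 groups of 7 libraries, 1 gene in 1 condition each, 17 held a library far from the other 6. Chance gives about 1 in 20 groups. Of these, 6 were in the A-Fos group and 3 of those in A-Fos replicate 10. In that library Gap43 was at 25.7 CPM (the others 39.0 to 46.9), Bnip3 at 46.1 CPM (65.9 to 79.5) and Sprr1a at 0.36 CPM (0.0 to 0.139). Among the other A-Fos libraries, Ctxn3 was at 48.6 CPM in replicate 1 (21.4 to 32.8 in the others), Rasd2 at 4.28 CPM in replicate 9 (1.78 to 2.48) and Tpx2 at 59.1 CPM in replicate 7 (66.1 to 70.8).

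Of the untransduced libraries, replicate 1 stood apart for Srxn1 (426 CPM), Prdx1 (540 CPM), Ngfr (242 CPM) and Rasd2 (14.3 CPM), where it was high, and for Prrx1 (35.3 CPM) and Csf1r (3.79 CPM), where it was low. Replicate 3 was high for Stat2 (47.8 CPM) and Adam8 (19.8 CPM) and low for Myd88 (14.5 CPM). Replicate 2 was high for Laptm5 (6.63 CPM) and replicate 8 for Gng8 (2.32 CPM).

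For 10 of the genes named, the effect of A-Fos differed between the culture sets by a test of that difference (edgeR, dated minus plain). On the log2 scale the difference was -2.07 for Chrna6, 2.17 for Cckbr, 0.53 for Jund, -0.52 for Cd55 and -1.14 for Insm2, a neuronal zinc finger gene. The other 5 were small or repeated RNAs and pseudogene-rich genes, at 1.31 for Mir6236, -1.72 for Gm24447, 0.9 for Gm24187, 0.75 for Rps2-ps10 and -0.72 for Ptma. The cause was not tested.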

How the results depend on the processing

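Of 139 named genes that were called, none changed sign under another scaling or filter, DESeq2, the fit without the block, either set alone or any left-out pair, and 139 stayed called with DESeq2. The call was lost by 45 of them in the dated set alone, 27 in that set less replicate 10, 16 in the plain set alone, 36 with neither block nor set term, 9 with the set in place of the block, 32 in the fit of all 30 libraries, and 2 to 18 when a pair was left out. The fit of all 30 libraries, which adds the GFP libraries and the 7DIV set, turned 10 of them to the other sign: B2m 0.06, mt-Co3 0.08, mt-Cytb 0.04, Rpl32 0.1, Dbi 0.01, Fabp7 0.01, Pmp22 0.01, Myl9 0.06, Tagln 0.0 and Tpx2 0.01 (log2). That fit includes the untransduced 7DIV library rich in nuclear RNA. In the plain set alone, genes not called overall were called with the other sign, namely Jund at -0.22, Mir6236 at -0.31, Gm24447 at 0.31, Ptma at 0.29 and Rps2-ps10 at -0.28. Without the replicate block, with culture set as a covariate, 2730 genes were called. With neither term, 1491 were called and 430 of them were lower.

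Leaving out 1 pair gave 1516 to 3975 calls (855 to 2143 higher, 618 to 1832 lower), with the highest without replicate 10. The plain set alone gave 4271 (2166 lower) and the dated set alone 665 (347 higher, 318 lower). The dated set less replicate 10, chosen after seeing the data, gave 1271 (740 higher, 531 lower). No filter on low counts gave 1620 lower. The share of higher calls was 60.0%, against 55.7% with median-ratio factors, 50.9% with upper-quartile factors, 50.7% with no filter and 54.3% with DESeq2 (2843 calls). For the difference between sets, 30 calls became 46 with upper-quartile factors, 763 with no filter, 14 without the block, 334 with DESeq2 and 2 to 935 without 1 pair. The cause was not tested.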

Other observations

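Genes outside the lists were looked at by their p-value, and those below were chosen after their values were seen (means of 7 libraries a side, edgeR adjusted p, each in 1 direction in 7 of 7 pairs). Chrnb3, the nicotinic receptor subunit gene on chromosome 8 like Chrna6, rose from 0.615 to 5.19 CPM (log2 fold change 3.05 ± 0.2, adjusted p = 5.16e-07). Calcrl, the receptor for calcitonin gene-related peptide, rose from 1.84 to 5.13 CPM (1.46 ± 0.148, adjusted p = 2.21e-05), beside the rise of the peptide's own gene Calca. Ptger1, a prostaglandin E2 receptor, rose from 16.1 to 33.8 CPM (1.09 ± 0.109, adjusted p = 3.84e-05), as its relative Ptger4 did.

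Among falls, Vgf, a neuropeptide precursor that activity and growth factors induce, went from 192 to 96.9 CPM (log2 fold change -1.01 ± 0.096, adjusted p = 5.42e-05). Gata2, a zinc finger transcription factor, fell from 6.23 to 2.01 CPM (-1.64 ± 0.136, adjusted p = 4.00e-06). Clu, the secreted chaperone clusterin, fell from 93.0 to 53.3 CPM (-0.78 ± 0.0759, adjusted p = 2.30e-05).

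By gene class, 1424 of 14138 protein-coding genes were higher (10.1%) and 932 lower (6.59%). Of 332 lincRNA genes, 25 were higher (7.53%) and 10 lower (3.01%), against 8.86% and 5.91% of all genes. Of 1113 processed pseudogenes, 15 were higher (1.35%) and 44 lower (3.95%), where reads shared with the parent genes make the counts uncertain.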
